A study of Bos taurus with 7 samples.

Results

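Genes of cell-cell junctions were compared between day 4 and day 6 of the estrous cycle in the bovine corpus luteum, the progesterone-secreting gland that forms from the ovulated follicle. The set holds 73 genes of the 19539 entries in the authors' deposited table and was chosen by gene symbol. It comprises 23 cadherins, 4 nectins, 17 claudins, 7 other tight junction genes (OCLN, F11R, JAM2, JAM3 and TJP1 among them), 16 connexins, and 6 catenins and plaque genes (CTNNA1, CTNND1, JUP, PKP2, PKP4, DSP). All 73 were tested by the authors, and no symbol stood on more than 1 entry.

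Whole luteal tissue of otherwise untreated cows was collected on day 4 (3 libraries) and day 6 (4 libraries), and its messenger RNA was sequenced. All cows had been synchronised with a CIDR progesterone device, PGF2A (Lutalyse) and GnRH (Fertagyl). Per the labels, day 4 glands were taken after slaughter and glands from later than day 6 by colpotomy, an incision through the vaginal wall. How day 6 glands were removed is not stated, and if the route differed, route and day cannot be told apart. Whether the libraries came from different cows is not stated, so p-values measure only the spread between these libraries.

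Cells of a tissue hold to each other through several kinds of junction. Cadherins bind the same or a related cadherin on the neighbouring cell and are anchored to actin by catenins, nectins initiate the same adherens junctions, and desmosomes tie cells through desmoplakin and plakophilins to intermediate filaments. Claudins, occludin and junctional adhesion molecules form tight junctions on a scaffold of zonula occludens proteins, and connexins form the channels of gap junctions, through which ions and small messengers pass. In the ovary, gap junctions couple granulosa and luteal cells, and VE-cadherin and claudin-5 seal the endothelium of the dense luteal capillary bed.

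Levels are the authors' mean TPM per day, a length-scaled share of transcripts that allows genes to be compared with each other. The authors' deposited table gives group means and a Wald test but no values per library, so the overlap of the groups and the sequencing depth behind each value are not known here. Log2 fold changes are day 6 over day 4, computed by multiplying the Wald statistic with its standard error (SE), and intervals are 95% Wald intervals. A gene is called where the authors' deposited table has an adjusted p under 0.05. In bulk tissue, fewer cells of a type and less RNA per cell cannot be told apart.

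Of the 73 junction genes, 12 were called in the authors' deposited table, 2 higher (GJA1, NECTIN2) and 10 lower on day 6 (CDH3, CDH4, CDH6, CDH13, CDH19, CDH22, CLDN5, CLDN11, OCLN, GJC3). That is 16.4% of the junction genes, beside 14.5% of all 19485 tested entries. By direction, 2.74% were higher beside 4.12% of all entries, and 13.7% were lower beside 10.4%. The share called was thus close to the background, and the gene identities and sizes described next carry the comparison. Genes averaging at least 5 TPM held 6 of the calls, among 28 such junction genes (21.4%, beside 16.0% of all such entries in the authors' deposited table). The other 6 calls lay among 45 genes under 5 TPM (13.3%, beside 12.7%). The median log2 fold change over the 73 was -0.09, or -0.06 without the 9 listed at 0 on either day, beside -0.04 over all tested entries.

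**Figure D1:**
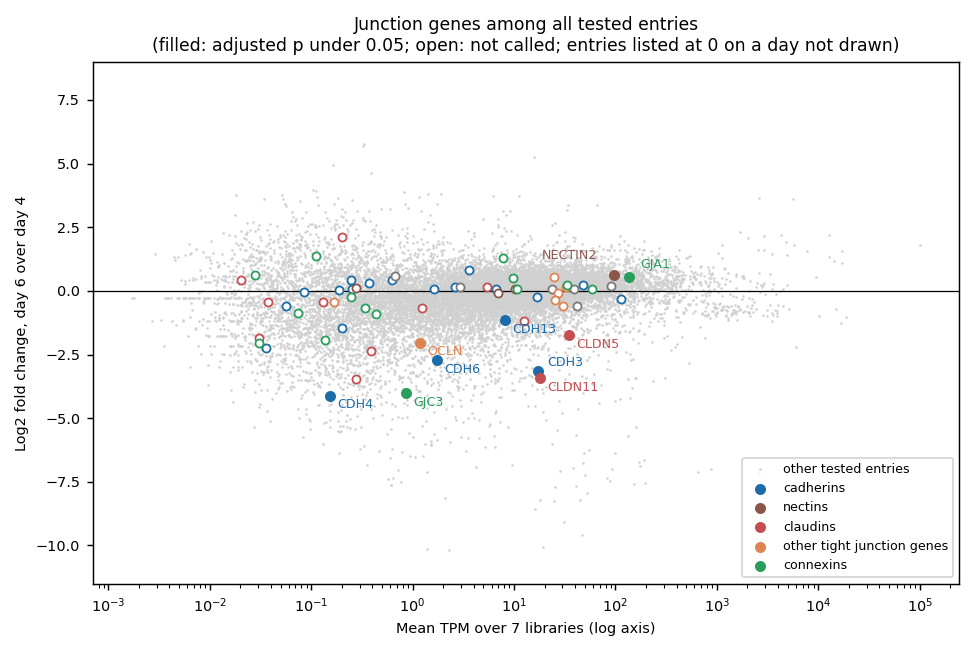
Log2 fold change (day 6 over day 4) of each tested entry against its mean TPM over 7 libraries, on a log axis, with junction genes coloured by family, filled where called and open where not; entries listed at 0 on either day are not drawn. The called junction genes lie mostly below 0, with CDH3 and CLDN11 at log2 -3.16 and -3.42, and GJA1 and NECTIN2 just above 0.

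The split by direction depended on scaling. Against the log2 ratio of mean TPM the fold changes were 0.21 higher (median difference over 10599 entries of at least 5 TPM), while the 13 mitochondrially encoded genes went from 10.3% to 29.2% of the mean TPM in the authors' deposited table. With the shift of 0.21 taken off, called the TPM scale here, 0 junction genes were higher, beside 1.53% of all entries. Lower calls numbered 15 (20.5%, beside 19.7% of all entries), and these were all the calls there (beside 21.2% of all entries called in either direction). GJA1 and NECTIN2 lost their calls there, and CDH23, JUP, CLDN3, JAM2 and JAM3 were called lower. A shift of 0.13 was instead added to every fold change, with SE unchanged, to match mean TPM over the other genes only, called the nuclear TPM scale here. On it 3 were higher (4.11%, beside 9.48% of all entries) and 10 lower (13.7%, beside 8.19% of all entries). That made 13 called in all (17.8%, beside 17.7% of all entries), with CTNNA1 gained. Centring on the median entry gave 12 calls, 16.4% of the junction genes beside 14.5% of all entries. A minimum mean of 1 TPM gave 9 among 35 genes, 25.7% beside 18.2% of all such entries. An adjusted p under 0.01 gave 10 calls, 13.7% beside 7.41% of all entries. A test against a fold of 1.5 gave 7, 9.59% beside 2.58% of all entries. When p-values were taken from a t distribution with 5 degrees of freedom, 0 junction genes and 0.0% of all entries were called. An unadjusted p under 0.05 was reached there by 14 of the 73 junction genes, beside 3133 of all 19485 tested entries. The 10 lower calls of the authors' deposited table were lower and called on the TPM, nuclear TPM and median-centred scales, and the 2 higher genes had positive fold changes on each.

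Levels ranged widely. On at least 1 of the days 38 of the 73 genes reached 1 TPM in the authors' deposited table, and 35 stayed under 1 TPM on both. On day 4 the most abundant was the mesenchymal cadherin CDH11 at 137 TPM, followed by GJA1 at 120, CTNNA1 at 91.2 and NECTIN2 at 84.9 TPM in the authors' deposited table. On day 6 GJA1 led at 151 TPM, with NECTIN2 at 107, CDH11 at 94.8 and CTNNA1 at 90.5 TPM there. The same 4 genes headed the order on both days. CLDN5 went from place 6 to 16, CDH3 from place 12 to 28 and CLDN11 from place 11 to 29 of 73 by mean TPM in the authors' deposited table.

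**Figure D2:**
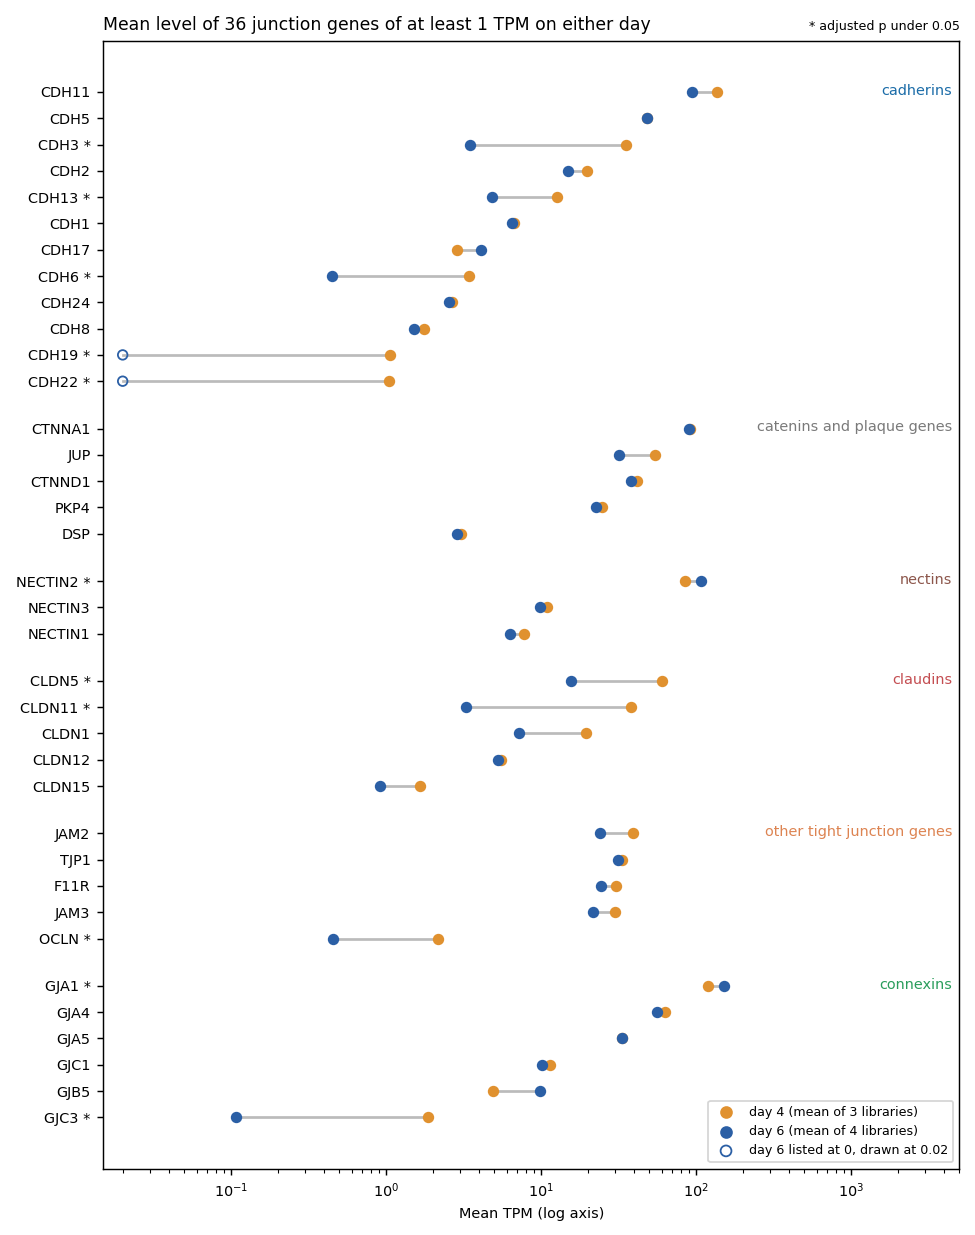
Mean TPM (log axis) of 36 of the 38 junction genes that reach 1 TPM on either day (2 are not drawn because they are not reported by name), on day 4 (orange, 3 libraries) and day 6 (blue, 4 libraries), by family, with an asterisk where called; no error is drawn because the deposited means carry none. The longest lines to the left are those of CDH19 and CDH22, listed at 0 on day 6, and of GJC3, CLDN11 and CDH3.

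Among cadherins, 6 of 23 were called, all lower on day 6 (26.1%, beside 10.4% of all entries called lower), while CDH5 (VE-cadherin) and CDH2 (N-cadherin) were not called. CDH3, or P-cadherin, a classical cadherin best known from epithelia, fell from 35.3 to 3.49 TPM (log2 -3.16 ± 0.56 SE, interval -4.27 to -2.06, adjusted p = 2.58e-06 by the authors' Wald test in their deposited table). CDH3 had supplied 12.8% of the summed cadherin TPM on day 4 and supplied 1.91% on day 6 in the authors' deposited table. CDH13, or T-cadherin, an adiponectin-binding cadherin held by a lipid anchor, fell from 12.7 to 4.83 TPM (log2 -1.16 ± 0.29 SE, adjusted p = 0.00139 in the authors' deposited table). Against a fold of 1.5 CDH13 was not called. CDH6, a type II cadherin known from kidney development, fell from 3.44 to 0.45 TPM (log2 -2.73 ± 0.66 SE, adjusted p = 0.00104 in the authors' deposited table).

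The other called cadherins were scarce. CDH19, a type II cadherin known from Schwann cells and their precursors, stood at 1.06 TPM on day 4 and was listed at 0 on day 6 (adjusted p = 2.75e-05 in the authors' deposited table). CDH22, a cadherin known from the brain, stood at 1.05 TPM on day 4 and was likewise listed at 0 on day 6 (adjusted p = 0.00104 there). No fold is given for either, since the day 6 mean is 0 and no counts are at hand. CDH4, or R-cadherin, known from the retina, fell from 0.333 to 0.0168 TPM (log2 -4.11 ± 1.03 SE, adjusted p = 0.00156 in the authors' deposited table). These 3 genes averaged under 1 TPM over all libraries.

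CDH3 and CDH13 apart, the cadherins of at least 5 TPM on a day (CDH5, CDH2, CDH1 and CDH11) were not called. CDH5, the endothelial VE-cadherin, stood at 48.2 and 48.3 TPM (log2 0.23 ± 0.18 SE, interval -0.12 to 0.59, adjusted p = 0.408 in the authors' deposited table). CDH2, the N-cadherin of granulosa and luteal cells, stood at 19.7 and 14.9 TPM (log2 -0.25 ± 0.21 SE, interval -0.65 to 0.16, adjusted p = 0.447 there). CDH1, or E-cadherin, stood at 6.69 and 6.50 TPM (log2 0.06 ± 0.42 SE, interval -0.76 to 0.88, adjusted p = 0.935 in the authors' deposited table). CDH11 stood at 137 and 94.8 TPM (log2 -0.34 ± 0.22 SE, interval -0.77 to 0.10, adjusted p = 0.31 in the authors' deposited table). The intervals of CDH5 and CDH2 leave out a change of 1 log2 unit in either direction, and so do those of CDH1 and CDH11. Summed over the 23 cadherins the mean TPM was 275 on day 4 and 183 on day 6 in the authors' deposited table, of which CDH11 held 49.9% and 51.7%.

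CDH3 lies next to CDH1 in the RefSeq gene order (assembly ARS-UCD2.0, used for order only). Of 15 pairs of junction genes that neighbour each other in that order, 0 had both members called, 4 had a single member called and 11 had neither. The 4 were CDH3 beside CDH1, CDH4 beside CDH26, CDH6 beside CDH9, and CDH19 beside CDH7. Singly, 16.4% of the 73 genes were called, beside 14.5% of all entries. CDH26 (0.203 and 0.175 TPM, SE 1.11), CDH9 (0 and 0.0171 TPM, SE 3.04) and CDH7 (0.278 and 0.237 TPM, SE 1.01) stayed under 1 TPM on both days. Their lack of a call therefore says little about a difference from the neighbour. In each of these pairs the difference between the 2 genes was not tested. CDH3 overlaps ZFP90 and CDH4 overlaps TAF4 in that annotation, and whether the counting used strand is not given in the sources used here. ZFP90 stood at 12.6 and 8.35 TPM (adjusted p = 0.0585) and TAF4 at 7.12 and 4.74 TPM (adjusted p = 0.295) in the authors' deposited table, both named after their values were seen.

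The cytoplasmic partners of cadherins were not called. CTNNA1, the α-catenin that couples cadherins to actin, stood at 91.2 and 90.5 TPM (log2 0.21 ± 0.11 SE, adjusted p = 0.185 there) in the authors' deposited table and was called higher only on the nuclear TPM scale among the alternatives run. CTNND1, the p120-catenin that holds cadherins at the membrane, stood at 41.4 and 37.8 TPM (log2 0.09 ± 0.12 SE, adjusted p = 0.688 there). JUP, the plakoglobin shared by adherens junctions and desmosomes, stood at 54.3 and 31.7 TPM (log2 -0.60 ± 0.22 SE, adjusted p = 0.052 in the authors' deposited table), just over the threshold, and was called lower on the TPM scale, on the median-centred scale and with a minimum of 1 TPM. PKP4, a plakophilin of adherens junctions, stood at 24.8 and 22.6 TPM (adjusted p = 0.765 in the authors' deposited table). The desmosomal DSP (3.03 and 2.88 TPM) and PKP2 (0.578 and 0.75 TPM) were scarce on both days in the authors' deposited table.

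Nectins were carried by NECTIN2, which is an adhesion molecule and also a ligand of the lymphocyte receptors CD226 and TIGIT. NECTIN2 rose from 84.9 to 107 TPM (log2 0.61 ± 0.16 SE, interval 0.29 to 0.93, adjusted p = 0.00376 in the authors' deposited table). On the TPM scale and against a fold of 1.5 it was not called. It held 81.8% of the summed nectin TPM on day 4 and 86.7% on day 6 in the authors' deposited table. NECTIN3 (10.8 and 9.81 TPM) and NECTIN1 (7.72 and 6.27 TPM) were not called there, and NECTIN4 stayed under 1 TPM. TIGIT stood at 2.02 and 1.36 TPM (adjusted p = 0.312) and CD226 at 0.412 and 0.414 TPM (adjusted p = 0.892) in the authors' deposited table. PVR, a related ligand of both receptors, stood at 18.3 and 21.6 TPM (adjusted p = 0.36 there). These 3 genes were named after their values were seen.

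**Figure D3:**
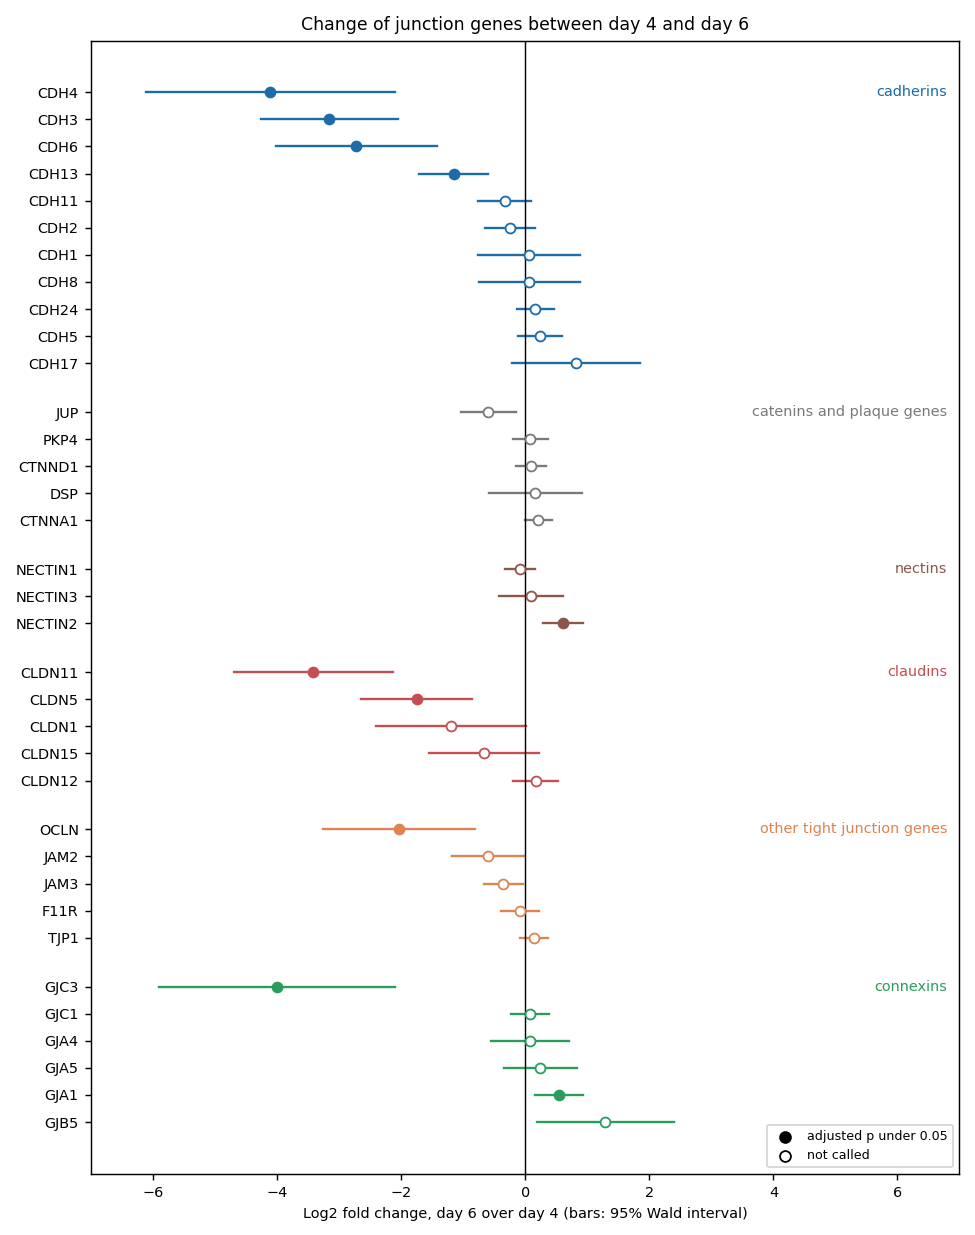
Log2 fold change (day 6 over day 4) with 95% Wald intervals for 35 junction genes that reach 1 TPM on either day or were called, by family, leaving out CDH19 and CDH22, listed at 0 on day 6, and 2 genes not reported by name; filled points were called. CDH4, GJC3, CLDN11, CDH3 and CDH6 lie farthest to the left, with intervals wholly under 0, and TJP1 and the catenin genes, JUP apart, lie near 0 with narrow intervals.

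Of 17 claudins 2 were called, both lower on day 6 (11.8%, close to the 10.4% of all entries called lower). Claudins had the lowest ratio of summed TPM among the families: 127 TPM on day 4 and 33 TPM on day 6 in the authors' deposited table, a 3.86-fold lower sum. No error can be given for a sum of means. CLDN5, the main claudin of endothelial tight junctions, fell from 60.1 to 15.6 TPM (log2 -1.75 ± 0.46 SE, interval -2.65 to -0.86, adjusted p = 0.0027 in the authors' deposited table). CLDN11, known from myelin and from Sertoli cells of the testis, fell from 38.1 to 3.27 TPM (log2 -3.42 ± 0.65 SE, interval -4.70 to -2.14, adjusted p = 1.35e-05 there). CLDN1, a barrier claudin of epithelia, stood at 19.4 and 7.19 TPM and was not called (log2 -1.20 ± 0.62 SE, interval -2.41 to 0.01, adjusted p = 0.181 in the authors' deposited table). CLDN12, a claudin of atypical structure, stood at 5.50 and 5.30 TPM (log2 0.16 ± 0.19 SE, adjusted p = 0.6 there).

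The claudin order changed through CLDN11. CLDN5 held 47.2% of the summed claudin TPM on both days in the authors' deposited table, while CLDN11 went from 29.9% to 9.92% and CLDN12 from 4.32% to 16.1%. Of the 17 claudins, 12 stayed under 1 TPM on both days and 5 were listed at 0 on a day. Among these, CLDN3 (0.733 and 0.13 TPM, adjusted p = 0.0615) and CLDN4 (0.586 and 0.0458 TPM, adjusted p = 0.11) neighbour each other in the RefSeq order, and both had unadjusted p-values under 0.05 in the authors' deposited table. They are receptors for a bacterial enterotoxin and typical of epithelia. The call of CLDN5 was lost against a fold of 1.5, and that of CLDN11 was not.

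**Figure D4:**
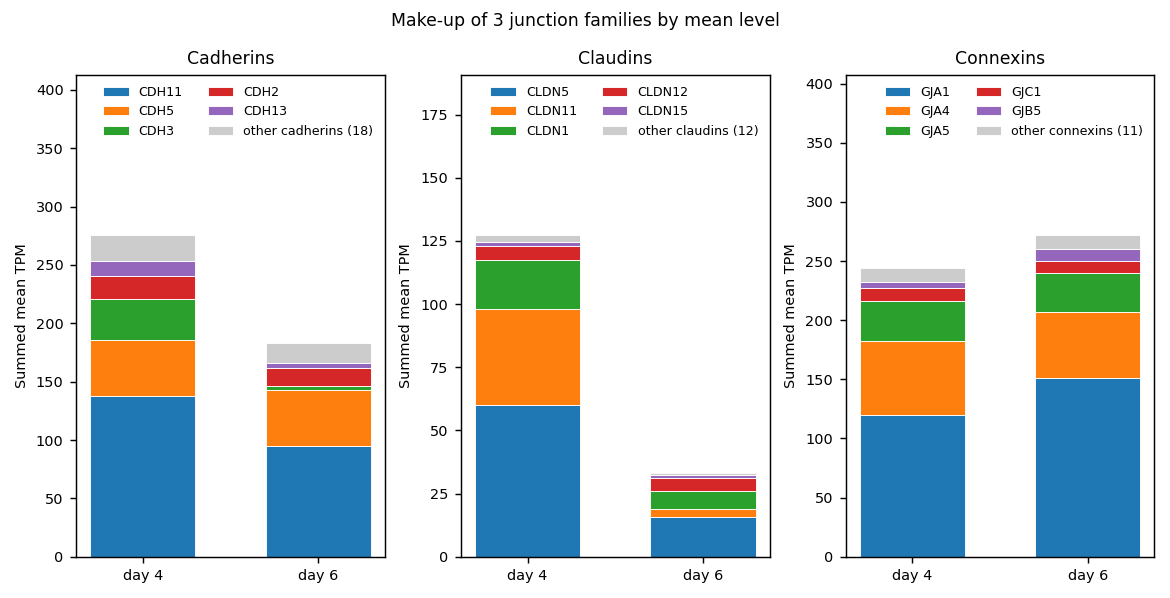
Summed mean TPM of cadherins, claudins and connexins on day 4 and day 6, stacked by 5 abundant genes of each family and the sum of the rest; the axes start at 0, and no error is drawn because the deposited means carry none. The claudin sum goes from 127 to 33 TPM, the cadherin sum from 275 to 183 TPM and the connexin sum from 245 to 272 TPM.

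Of the 7 other tight junction genes OCLN alone was called (14.3%, beside 10.4% of all entries called lower). OCLN, or occludin, a membrane protein of the tight junction strand, fell from 2.18 to 0.456 TPM (log2 -2.04 ± 0.63 SE, adjusted p = 0.0141 there) in the authors' deposited table and lost its call at an adjusted p under 0.01 and against a fold of 1.5. The adhesion molecules JAM2 (39.1 and 24.1 TPM, log2 -0.60 ± 0.30 SE, adjusted p = 0.158) and JAM3 (30.1 and 21.6 TPM, log2 -0.36 ± 0.16 SE, adjusted p = 0.115), both known from endothelium, were not called in the authors' deposited table but were called lower on the TPM scale. F11R, or JAM-A, stood at 30.7 and 24.5 TPM (log2 -0.09 ± 0.16 SE, adjusted p = 0.767 in the authors' deposited table). The scaffold gene TJP1, or zonula occludens 1, was not called (33.4 and 31.4 TPM, log2 0.13 ± 0.12 SE, adjusted p = 0.472 there). TJP1 was thus measured with a narrow interval, -0.10 to 0.36, beside the falls of CLDN5 and CLDN11.

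Of 16 connexins 1 was called higher (6.25%, beside 4.12% of all entries) and 1 lower (6.25%, beside 10.4%). Connexins were led by GJA1, the connexin of granulosa and luteal cell gap junctions. GJA1 rose from 120 to 151 TPM (log2 0.55 ± 0.20 SE, interval 0.16 to 0.94, adjusted p = 0.043 in the authors' deposited table). The call was lost on the TPM scale, on the median-centred scale, at an adjusted p under 0.01 and against a fold of 1.5. It held 49.0% of the summed connexin TPM on day 4 and 55.5% on day 6 in the authors' deposited table. GJA4 (62.7 and 56.1 TPM, log2 0.07 ± 0.32 SE, adjusted p = 0.913) and GJA5 (33.4 and 33.2 TPM, log2 0.24 ± 0.30 SE, adjusted p = 0.646), the connexins of arterial endothelium, were not called in the authors' deposited table. GJC1, a connexin of vascular smooth muscle and heart conduction tissue, stood at 11.4 and 10.1 TPM (log2 0.07 ± 0.16 SE, adjusted p = 0.824 there).

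GJC3, a connexin known in mouse from myelinating glia, fell from 1.87 to 0.108 TPM (log2 -4.01 ± 0.97 SE, interval -5.91 to -2.11, adjusted p = 0.00103 in the authors' deposited table). GJB5, a connexin known from skin and trophoblast, stood at 4.92 and 9.85 TPM and was not called (log2 1.29 ± 0.56 SE, interval 0.19 to 2.39, adjusted p = 0.102 in the authors' deposited table). On both days 9 of the 16 connexins stayed under 1 TPM.

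Markers of cell types moved beside several of these genes, and their part in the results was not tested. Beside the marker counts given here stand 4.12% of all tested entries called higher and 10.4% called lower. For the luteal identity of the tissue, all 8 steroidogenic markers (STAR, CYP11A1, HSD3B1, LHCGR, OXT, INHA, NR5A1, PTGFR) were abundant, with summed means of 12835 and 22434 TPM in the authors' deposited table, 1 of them called higher (STAR, log2 2.32 ± 0.74 SE) beside the rise of GJA1. Of 12 endothelial markers 1 was called, EGFL7 (86 to 50.4 TPM, log2 -0.56 ± 0.19 SE, adjusted p = 0.0245 in the authors' deposited table), which was not called on the nuclear TPM scale. The sum of the 12 went from 430 to 361 TPM there, a ratio of 0.84, beside a ratio of 0.26 for CLDN5 and 1.00 for CDH5. The remaining 11, PECAM1, KDR and VWF among them, were not called. Of 4 lymphatic endothelial markers LYVE1 rose (29.4 to 56.2 TPM, log2 1.16 ± 0.16 SE) and 0 fell, with a sum of 86.3 and 116 TPM in the authors' deposited table. PROX1 (2.31 and 0.881 TPM, log2 -1.20 ± 0.47 SE, adjusted p = 0.062) and FLT4 (12.4 and 6.54 TPM, log2 -0.74 ± 0.34 SE, adjusted p = 0.131) had negative fold changes and were not called there, and the median of the 4 was -0.13.

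The called glial, mural and stromal markers, S100B apart, were lower on day 6, as were the called cadherins and GJC3. Of 4 Schwann cell markers 3 fell and 1 rose, beside the falls of CDH19 and GJC3. SOX10, the transcription factor of that lineage, fell from 1.78 to 0.00925 TPM (log2 -7.52 ± 1.22 SE, adjusted p = 1.8e-07 in the authors' deposited table). S100B, which other cells express too, rose (35.9 to 54.1 TPM, log2 0.80 ± 0.14 SE in the authors' deposited table) and made the sum of the 4 markers 39.2 and 54.1 TPM. Of 9 pericyte and smooth muscle markers 5 fell (55.6%, beside 10.4% of all entries called lower) and 0 rose, with a sum of 2341 and 618 TPM in the authors' deposited table. DES (52.8 to 3.55 TPM) and MYH11 (244 to 11.3 TPM) were among the 5. The 4 not called were RGS5 (133 and 116 TPM, log2 0.05), CSPG4, NOTCH3 and PDGFRB (58.6 and 36.7 TPM, log2 -0.46), so the falls did not extend to every marker on this list. Of 6 fibroblast markers PDGFRA and DCN fell and 0 rose, with a sum of 8963 and 7646 TPM in the authors' deposited table. Of 5 theca markers TCF21 (104 to 5.64 TPM) and GLI1 fell and 0 rose, with a sum of 392 and 108 TPM there.

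Among epithelial and leukocyte markers the called genes were lower on day 6, while granulosa markers were called in both directions. Of 8 markers of surface epithelium and mesothelium, WT1 fell (34.6 to 6.94 TPM, log2 -2.17 ± 0.44 SE, adjusted p = 5.16e-05 there) and 0 rose, with a sum of 202 and 172 TPM in the authors' deposited table. The keratin genes KRT8 (105 and 111 TPM) and KRT18 (57.7 and 47.9 TPM) made up most of that sum and were not called, and EPCAM (0.244 and 0.0497 TPM) and KRT7 (0.492 and 0.553 TPM) were near 0 on both days in the authors' deposited table, beside 35.3 TPM of CDH3 on day 4. Of 5 granulosa markers FOXL2 rose and GATM fell, with a sum of 44.3 and 39.4 TPM in the authors' deposited table. FOXL2 lost its call on the TPM scale and on the median-centred scale. Of 6 leukocyte markers CD14, CD3E and CSF1R fell and 0 rose, with a sum of 51.4 and 20.9 TPM in the authors' deposited table.

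**Figure D5:**
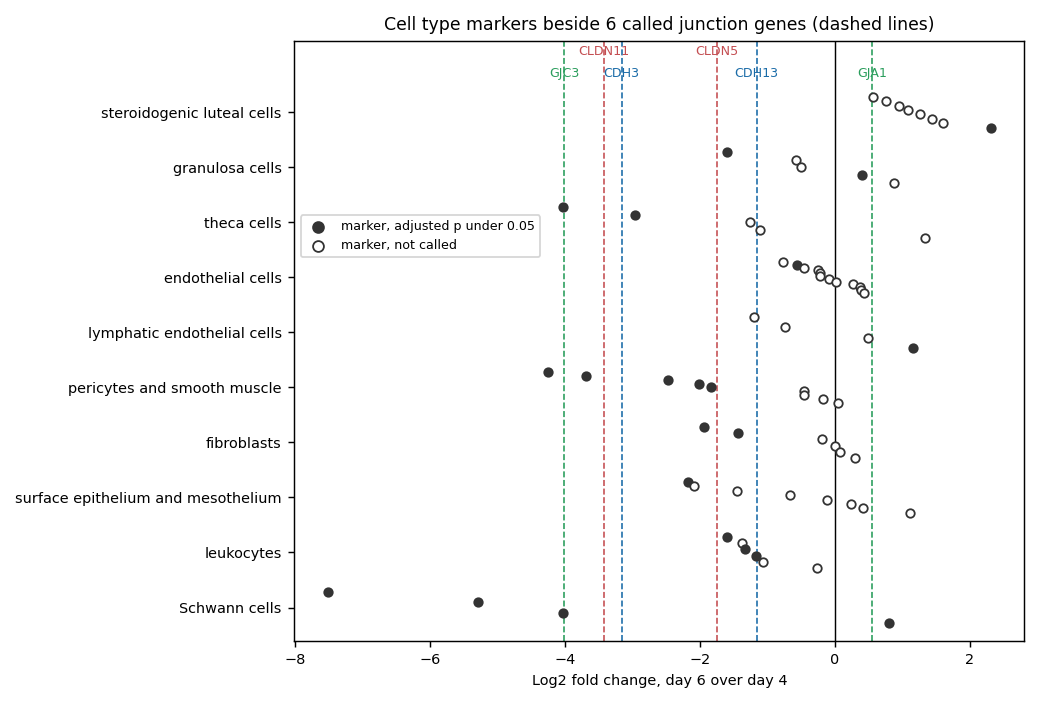
Log2 fold change (day 6 over day 4) of each marker gene by cell type list, filled where called, with dashed lines at 6 called junction genes. The endothelial markers lie within 1 log2 unit of 0, to the right of CLDN5. MYH11 and DES of smooth muscle, TCF21 of theca cells and 3 of the 4 Schwann cell markers lie to the left of CDH3 and CLDN11. The other markers of those lists lie to the right of CDH3.

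Other genes of cell junctions, on 7 lists of partners, relatives and repressors, were called more often lower than higher: of 108 matched genes 26 were called (24.1%, beside 14.5% of all entries), 6 higher and 20 lower in the authors' deposited table. By direction, 5.56% were higher beside 4.12% of all entries and 18.5% were lower beside 10.4%, so lower calls outnumbered higher ones in the whole table too. On the nuclear TPM scale the split of the 108 was 13 higher and 19 lower, beside 9.48% of all entries called higher there and 8.19% called lower. Of 15 adherens junction partners 3 fell (20%, beside 10.4% of all entries called lower) and 0 rose. Among them were ACTN1, an actin crosslinker (110 to 49.9 TPM, log2 -0.93 ± 0.20 SE, adjusted p = 0.000141), and PTPRK, a receptor phosphatase acting on catenins (7.06 to 3.1 TPM, log2 -0.98 ± 0.30 SE), in the authors' deposited table. CTNNB1, the β-catenin of the cadherin complex, was not called (117 and 111 TPM, log2 0.11 ± 0.11 SE, adjusted p = 0.546 there). It was named after its values were seen. The median of these 15 was -0.27, beside -0.04 over all tested entries.

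Tight junction scaffold and polarity genes went both ways, with a median of 0.01. Of 28, 2 were higher (7.14%, beside 4.12% of all entries) and 4 lower (14.3%, beside 10.4%). CGN, or cingulin, which links tight junctions to actomyosin, rose from 6.50 to 14.2 TPM (log2 1.35 ± 0.34 SE, adjusted p = 0.00165 in the authors' deposited table), opposite in direction to OCLN, CLDN5 and CLDN11. PATJ, a polarity scaffold, rose from 3.52 to 4.27 TPM (log2 0.50 ± 0.15 SE, adjusted p = 0.0107 there), a call lost on the TPM scale. PRKCZ, an atypical protein kinase C of the polarity complex, fell from 3.22 to 0.499 TPM, TMEM47, a claudin-related membrane protein, from 40.5 to 17.3 TPM, and AMOTL2, an angiomotin relative, from 20.2 to 12.2 TPM in the authors' deposited table. PARD6G, a partner of PRKCZ in the polarity complex, fell from 3.56 to 1.20 TPM there.

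Among 16 immunoglobulin-type adhesion genes 3 fell (18.75%, beside 10.4% of all entries called lower) and 0 rose, with a median of -0.08. L1CAM, known from axons and glia, fell from 2.31 to 0.0375 TPM (log2 -5.72 ± 0.85 SE, adjusted p = 6.77e-09 in the authors' deposited table). CADM3, a neural adhesion molecule, fell from 2.93 to 0.222 TPM, and CLMP from 18.5 to 7.4 TPM, in the authors' deposited table. Of 12 other desmosome and plaque genes EVPL, or envoplakin, fell at a low level (0.343 to 0.00911 TPM, adjusted p = 2.03e-05 in the authors' deposited table), with a median of -0.15 over the list. That 1 call was 8.33% of the list, beside 10.4% of all entries called lower. The authors' Wald test called 0 of 3 pannexins, beside 14.5% of all entries, with a median of 0.42. An unadjusted p under 0.05 by that test was reached by 1 of the 3, beside 5552 of all 19485 tested entries.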

How the data were processed

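Messenger RNA of 7 whole luteal tissue samples (3 of day 4, 4 of day 6) was sequenced by the authors. Per the submitters' processing notes, FastQC, DESeq2 and the build ARS-UCD1.2 were used, without versions. The sources used here do not give the read counter or annotation. The authors' means are taken as TPM because both deposited columns sum to 999999. The deposited log2 ratio equals the log2 ratio of mean TPM after adding 1 in all 19539 entries (tolerance 1e-06) and was not used for sizes. The deposited score is the authors' Wald statistic, with a log2 standard error. In 19485 entries the authors' deposited p-value is that of the score under a normal distribution, two-sided, and the other 54 were left out. Their deposited adjusted p-values follow Benjamini and Hochberg over the 19485.

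The fold changes are statistic times standard error. The design planned for values per library was replaced by the authors' test, since the table holds means only. Depth per library is unknown, so no counting interval was computed. The members, 17 lists (179 genes, 175 matched, 1 of them through a RefSeq synonym) and tests were chosen with earlier results of these data known. Named are called members, others of at least 5 TPM on a day, CDH1, CDH2, CDH5, CLDN1, CLDN5 and GJA1, and up to 4 called genes per list, with other genes marked where they appear. Members outside the rule (CDH7, CDH9, CDH23, CDH26, CLDN3, CLDN4, CLDN10, NECTIN4, DSP and PKP2), PATJ, PARD6G, DCHS1, ZEB2 and the markers given as not called were named after their values were seen. Some genes counted in these sets are not reported here by name. The code for adjustment and Wald tests was checked on simulated data, with fold changes drawn from a normal distribution with the authors' standard errors. That check cannot show whether those errors or the normal reference suit 7 libraries. Analyses used Python 3.11.15, pandas 2.3.3 and scipy 1.17.1.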

Additional observations from a re-analysis of the deposited data

How the results depend on the processing

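Values per library were not at hand, so leaving out replicates was not run. No paired analysis was possible because the deposited columns are day means with no replicate numbers. The authors' Wald test refers its statistic to a normal distribution. A t distribution (5 degrees of freedom) is a stricter reference for 7 libraries, and which of them suits the authors' test was not tested. Under the t distribution 0 junction genes were called (0 higher, 0 lower), and 0 of the genes on the 7 junction lists (0 higher, 0 lower). The smallest adjusted p was 0.245 among junction genes and also among all entries, so this setting does not set junction genes apart. Against a fold of 1.5, 7 of 73 junction genes were called, 0 of them higher, and 4 of 108 list genes, 0 higher and 4 lower. Of all entries 2.58% were called in that setting. At an adjusted p under 0.01 the junction genes called higher were 1, and list genes called were 17 of 108, of which 3 were higher. Of all entries 7.41% were called at that threshold, in either direction. On the TPM scale 0 junction genes were called higher and on the median-centred scale 1. On the nuclear TPM scale 13 of 108 list genes were called higher, beside 9.48% of all entries. With a mean of at least 5 TPM, an alternative added after the data were seen, 6 junction genes were called.

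The median log2 fold change of the junction genes moved to 0.039 on the nuclear TPM scale and to 0.068 with a minimum of 1 TPM, so its sign depends on these choices. On the TPM scale, genes that were not called changed sign: CDH1 (-0.15), CTNNA1 (-0.0065), CTNND1 (-0.13), PKP4 (-0.13), CLDN12 (-0.051), GJA4 (-0.14), GJC1 (-0.15), NECTIN3 (-0.13) and TJP1 (-0.081). On the nuclear TPM scale NECTIN1 (0.039) and F11R (0.039) did so. No called junction gene changed sign under any alternative run. Genes averaging under 1 TPM, CDH4, CDH19, CDH22 and GJC3, were not tested with the minimum of 1 TPM. Using the lowest entry of a repeated symbol changed 0 calls of junction genes and raised the list genes called from 26 to 27 and those called higher from 6 to 7, through ZEB2.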

Other observations

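Cadherins outside the classical family, on a list chosen with earlier results of these data known, were called in both directions. Of 27 matched protocadherins and atypical cadherins 9 were called (33.3%, beside 14.5% of all entries), 4 higher and 5 lower, with a median of -0.13. FAT4 and DCHS1, a receptor and ligand pair of planar cell polarity, both fell, FAT4 from 7.68 to 1.43 TPM (log2 -2.22 ± 0.51 SE, adjusted p = 0.000438) and DCHS1 from 13.1 to 4.85 TPM (log2 -1.24 ± 0.37 SE, adjusted p = 0.00981) in the authors' deposited table. FAT3 fell from 1.98 to 0.278 TPM (log2 -2.63 ± 0.68 SE) there. CELSR2, a planar polarity cadherin, rose from 3.08 to 8.96 TPM (log2 1.79 ± 0.43 SE, adjusted p = 0.000904), and PCDH1 rose from 6.97 to 10.3 TPM (log2 0.83 ± 0.20 SE, adjusted p = 0.00097) in the authors' deposited table.

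Transcription factors known to repress CDH1 in other tissues were called lower beside a CDH1 level that was not called. Of 7 such genes 4 fell (57.1%, beside 10.4% of all entries called lower) and 0 rose. The 4 were SNAI2 (59.5 to 29.5 TPM, log2 -0.80 ± 0.19 SE, adjusted p = 0.00106), TWIST1 (18.4 to 5.71 TPM, log2 -1.52 ± 0.40 SE), TWIST2 (5.05 to 1.2 TPM, log2 -1.90 ± 0.51 SE) and ZEB1 (14.3 to 7.22 TPM, log2 -0.77 ± 0.25 SE, adjusted p = 0.0226), in the authors' deposited table. The call of ZEB1 was lost on the nuclear TPM scale (adjusted p = 0.0566). ZEB2 stands on 2 entries of the authors' deposited table, and the more abundant, counted here, was not called (44 and 58.7 TPM, log2 0.65 ± 0.25 SE, adjusted p = 0.0629), while the other was called higher (8.78 and 13.2 TPM, log2 0.83 ± 0.28 SE, adjusted p = 0.0283). Counted on that entry, 1 of the 7 rose, beside 4.12% of all entries called higher. The median of the 7 was -0.77. CLDN10 was listed at 0 on day 6 after 0.78 TPM on day 4 and was not called (adjusted p = 0.186 in the authors' deposited table).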
